A study of Mus musculus with 36 samples.

Results

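Lung RNA of 3 mice given 54 µg of tube-shaped titanium dioxide nanoparticles was compared with that of 3 mice given 18 µg, all collected at day 1. The dose and time labels define both groups, which hold 8 of the series' 36 arrays and 6 of its 29 mice, 4 arrays and 3 mice at each dose. All were female C57BL/6 mice, 5 to 7 weeks old, per the labels' protocols. Each received a single intratracheal instillation of the particles in 40 µl, and both groups carry the same particle. The series also holds mice given 0 or 162 µg at day 1, and mice at the same 4 doses collected at day 28. RNA came from random sections of frozen lung, so each array shows a piece of tissue and not a cell type. On every array the lung RNA carried Cy5 and a reference RNA pooled from 11 mouse cell lines carried Cy3. Values are log2(Cy5/Cy3), the log2 ratio of lung RNA over that reference, and a difference of 1 between groups is a 2-fold difference. A level below 0 says only that the reference held more of the transcript. In bulk lung, fewer cells of a type and less RNA per cell cannot be told apart.

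Particles that reach the alveoli are taken up by alveolar macrophages. These and the airway epithelium release chemokines, which draw neutrophils and monocytes from the blood, and cytokines such as interleukin 6, which turn on acute phase genes through the transcription factors STAT3, NF-κB and C/EBP. Acute phase genes are best known from the liver, but the mouse lung also makes serum amyloid A locally. Serum amyloid A proteins are small apolipoproteins that travel on high-density lipoprotein and attract leukocytes.

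The arrays of both doses had the signal needed for the comparison: in Cy5, 50.91% to 61.02% of probes read well above background, at median raw intensities of 103 to 139 per array. Across genes, which are not independent replicates, the 54 µg mice correlated with each other at r = 0.848 to 0.978 and the 18 µg mice at 0.886 to 0.980. Alveolar type II, alveolar type I, club and endothelial cell markers had mean log2 Cy5 intensities of 11.12 or more in all 6 mice. One mouse of each group stood apart through skeletal muscle transcripts. The mean log2 Cy5 over 15 muscle markers was 12.49 in 54 µg replicate 2 and 14.17 in 18 µg replicate 3, against 6.82 to 7.09 on the other 6 arrays. The balance between the groups was not complete. The array of 54 µg replicate 2 also carried transcripts of squamous epithelium (mean log2 Cy5 of 12.23), while 18 µg replicate 3 had 7.18 for that list. Cardiac muscle markers averaged 10.39, 10.67 and 8.51 in 54 µg replicates 1, 2 and 3, against 8.35, 8.46 and 9.79 in 18 µg replicates 1, 2 and 3.

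The first mouse of each dose was on 2 arrays, one on slide 1 and one on slide 5, which were averaged. For the 54 µg mouse these arrays correlated across genes at r = 0.968, and 198 of 23256 genes (0.852%) differed at least 2-fold between them. The genes that this report turns on were among those that differed. Saa3 read -0.26 on its slide 1 array and 2.47 on its slide 5 array. Saa1 read 0.21 and 2.01 there, Saa2 0.32 and 1.76, Timp1 -1.66 and 0.02, and Slc26a4 2.50 and 4.47, each on slides 1 and 5 in that order. The arrays of the first 18 µg mouse correlated at r = 0.960, and 276 genes (1.19%) differed at least 2-fold between them. On these, Saa3 read -3.09 and -3.07 and Timp1 -2.48 and -2.25, while Noxo1 read 0.97 and 0.17, Slc26a4 2.93 and 2.06, Ly6f 1.04 and 0.28 and Cxcl5 -4.06 and -3.29, again on slides 1 and 5. Results that rest on the 54 µg mouse are therefore also given with the slide 1 or the slide 5 array left out, a choice made after these values were seen.

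The comparison asks which lung transcripts a 3-fold higher dose moved on the first day. Of 23256 genes tested, 4 passed at a Benjamini-Hochberg adjusted p under 0.05 (0.0172%), and all 4 were higher at 54 µg. They were the 3 serum amyloid A genes Saa3, Saa1 and Saa2, and Timp1, an inhibitor of matrix metalloproteinases. Without that adjustment, 449 genes were higher and 213 lower at p under 0.05. A difference of at least 1 on the log2 scale was found for 154 genes in the higher direction and 22 in the lower, and the median over all genes was 0.0037. All 3 mice at 54 µg lay above all 3 at 18 µg in 1129 genes (4.85%) and below them in 796 (3.42%).

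**Figure D1:**
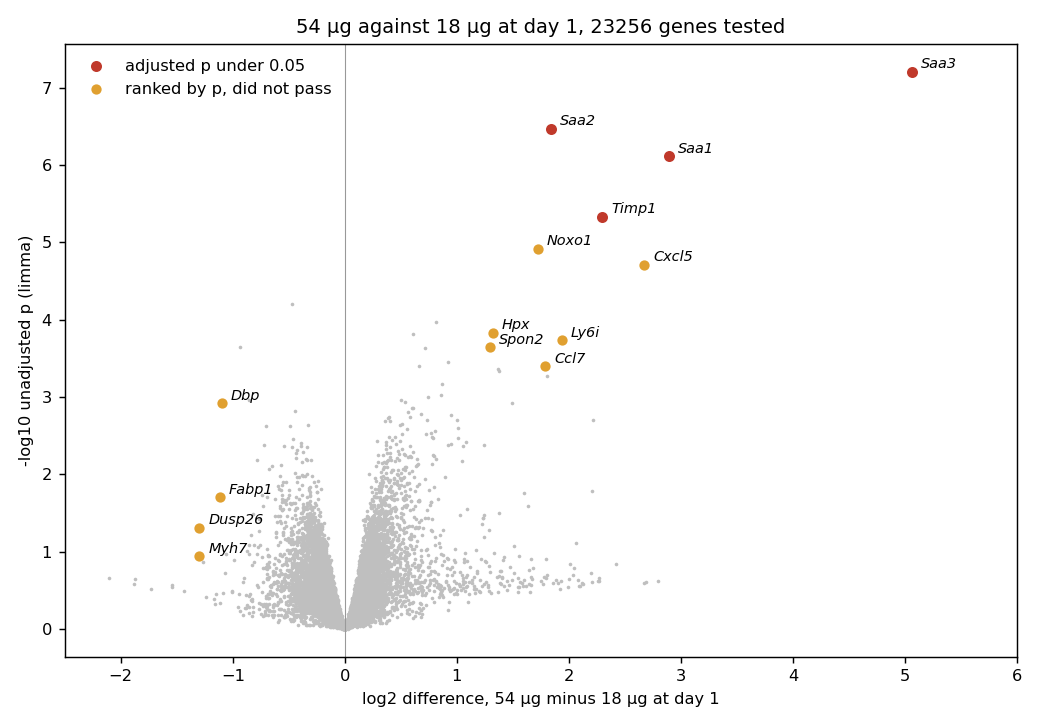
Log2 difference between 54 µg and 18 µg at day 1 (x axis) against -log10 of the unadjusted limma p (y axis) for 23256 genes. Red points are the 4 genes that passed, and orange points are the other genes ranked by p among those with a log2 difference of at least 1. Saa3, at 5.06, stands farthest to the right, and the 4 orange points left of 0 lie between -1.30 and -1.10.

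The promoters of the 4 genes that passed are shown because 3 of them are neighbours in 1 gene cluster that moved together, and the fourth is not part of it. Each runs from 250 bases before to 50 bases after the start of transcription, 5′ to 3′ on the gene's strand, from RefSeq on GRCm38.p6. Capitals mark matches to the C/EBP motif TTGCNNAA, searched on both strands.

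Saa3, chr7:46715627-46715926, minus strand: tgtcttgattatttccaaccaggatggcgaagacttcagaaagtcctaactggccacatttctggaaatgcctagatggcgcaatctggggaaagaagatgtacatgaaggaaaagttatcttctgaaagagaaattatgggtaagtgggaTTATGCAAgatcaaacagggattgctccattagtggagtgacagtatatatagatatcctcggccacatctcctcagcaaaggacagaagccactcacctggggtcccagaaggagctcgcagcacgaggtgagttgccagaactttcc

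Saa1, chr7:46742931-46743230, minus strand: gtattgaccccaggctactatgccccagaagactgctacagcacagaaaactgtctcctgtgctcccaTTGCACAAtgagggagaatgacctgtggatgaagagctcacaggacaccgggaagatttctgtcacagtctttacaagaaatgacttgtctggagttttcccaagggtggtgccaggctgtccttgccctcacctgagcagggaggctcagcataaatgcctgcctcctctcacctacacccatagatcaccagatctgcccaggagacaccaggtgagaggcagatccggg

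Saa2, chr7:46751583-46751882, plus strand: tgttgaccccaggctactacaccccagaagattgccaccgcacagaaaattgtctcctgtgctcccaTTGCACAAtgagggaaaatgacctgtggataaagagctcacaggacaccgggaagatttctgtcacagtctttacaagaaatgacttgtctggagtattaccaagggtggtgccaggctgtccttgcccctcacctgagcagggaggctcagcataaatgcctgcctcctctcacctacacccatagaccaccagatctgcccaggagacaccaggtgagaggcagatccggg

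Timp1, chrX:20869916-20870215, plus strand: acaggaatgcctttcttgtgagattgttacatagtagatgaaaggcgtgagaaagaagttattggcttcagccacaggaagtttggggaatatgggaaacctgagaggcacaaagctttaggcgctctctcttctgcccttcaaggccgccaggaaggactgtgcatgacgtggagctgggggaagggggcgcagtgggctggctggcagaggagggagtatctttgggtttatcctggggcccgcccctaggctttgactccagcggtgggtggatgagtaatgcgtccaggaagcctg

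Each serum amyloid A promoter held 1 match, at bases -99 to -92 in Saa3, -182 to -175 in Saa1 and -183 to -176 in Saa2, counted from the start of transcription. That of Timp1 held 0. The motif occurs in 10.8% of the 32851 promoters of this length. The standard NF-κB consensus, also searched on both strands and found in 8.46% of promoters, had no match in these 4 windows. Neither had AP-1 (TGANTCA, 7.81%), STAT (TTCNNNGAA, 8.30%), D-box (TTANNTAA, 6.00%) or E-box (CACGTG, 7.15%) motifs, each searched on both strands. The windows of Saa1 and Saa2 were alike: with 1 base of shift and no gaps, 208 of 299 positions (69.6%) held the same base. For Saa3 the best such match was 33.0% with Saa1 and 33.2% with Saa2. Saa2 holds 1 extra base against Saa1 within the window, and bases past it do not line up at that shift. The 69.6% therefore understates how alike these windows are. A match describes the letters of the window and is not a measured binding site. Of the 14 genes that passed or were ranked by p, 9 had a promoter in the table used.

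Saa3, whose product is the serum amyloid A that mouse macrophages and epithelia make locally, rose furthest. It stood at 1.11, 2.56 and 3.35 in 54 µg replicates 1, 2 and 3, against -3.08, -3.25 and -1.84 in 18 µg replicates 1, 2 and 3. The lowest 54 µg mouse was the one whose arrays disagreed, and the highest 18 µg mouse was the one with muscle, yet the groups lay almost 3 log2 units apart at their nearest. The means were 2.34 ± 1.14 at 54 µg and -2.72 ± 0.77 at 18 µg (SD, n = 3 each), a 33.4-fold rise (log2 difference 5.06, SE 0.66, adjusted p = 0.00144 in the limma fit). The sign held within every slide: 2.83 on slide 1, 5.54 on slide 5, 5.82 on slide 3 and 5.18 on slide 4. Saa3 passed without any 1 of the 6 mice, with log2 differences of 4.56 to 5.68, the highest without 54 µg replicate 1. It did not pass without the slide 5 array of that mouse (4.61, adjusted p = 0.0542).

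Saa1, a serum amyloid A of the plasma, stood at 1.11, 2.34 and 3.00 in 54 µg replicates 1, 2 and 3, against -0.96, -0.55 and -0.72 in 18 µg replicates 1, 2 and 3. It rose 7.44-fold (log2 difference 2.90, SE 0.44, adjusted p = 0.00595). The 18 µg mice were tightly grouped and the 54 µg mice spread over almost 2 log2 units. Saa2, its near-identical neighbour, stood at 1.04, 2.25 and 2.55 at 54 µg, against 0.11, 0.01 and 0.20 at 18 µg. It was well above background on 4 of 4 arrays at 54 µg and on 0 of 4 at 18 µg, so its rise was at least 3.58-fold (log2 difference 1.84, SE 0.26, adjusted p = 0.00391), and its log2 difference was 4.52 with the scanner software's LogRatio. The signal of Saa1 and Saa2 may be shared between their probes, which was not tested. Within slides, Saa1 differed by 1.13, 3.01, 2.90 and 3.72 and Saa2 by 0.10, 1.77, 2.24 and 2.35 on slides 1, 5, 3 and 4. Without 54 µg replicate 2, the mouse with muscle and squamous transcripts, neither passed (adjusted p = 0.0577 for Saa1 and 0.0556 for Saa2), and the same held without 54 µg replicate 3 (0.140 and 0.0829). Saa1 also lost its call without 18 µg replicate 1 (0.0827). Without the slide 5 array of 54 µg replicate 1 their adjusted p were 0.339 and 0.440. Without its slide 1 array they were 0.000181 and 1.12e-05.

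Timp1 stood at -0.82, -0.26 and 0.81 in 54 µg replicates 1, 2 and 3, against -2.36, -2.63 and -2.17 in 18 µg replicates 1, 2 and 3. The groups did not overlap. It rose 4.91-fold (log2 difference 2.30, SE 0.39, adjusted p = 0.0268), with differences of 0.81, 2.27, 2.37 and 2.98 within slides 1, 5, 3 and 4. It passed without 54 µg replicate 1 (adjusted p = 0.00803) and did not pass without any of the other 5 mice (0.0733 to 0.583) or without the slide 5 array of 54 µg replicate 1 (0.440). It also missed the threshold with the slide as a block (0.0738) and with the arrays scaled to one spread (0.120).

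The count of 4 rests on the spread shared over all 29 mice. With only the 6 mice in the fit, 0 genes passed and 698 had an unadjusted p under 0.05, and each of the 4 had the same difference with an adjusted p of 0.9995. Without the muscle arrays 1 gene passed, Saa3 (5.39, adjusted p = 0.0286), with Saa1 at 0.249, Saa2 at 0.222 and Timp1 at 0.107. With the muscle and squamous scores as covariates all 4 passed (adjusted p = 0.000159 to 0.00627) among 6 genes called. Leaving out the slide 1 array of 54 µg replicate 1 gave 12 calls, the 4 among them, and leaving out its slide 5 array gave 0 (559 genes at p under 0.05). In simulated data of this comparison on 23256 genes, 78% of 50 genes changed 2-fold and 96% of 50 changed 4-fold were recovered. The simulated data gave 160 calls against 4 here, and more calls make the adjusted threshold easier to pass. These shares are therefore not the sensitivity of the real comparison.

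**Figure D2:**
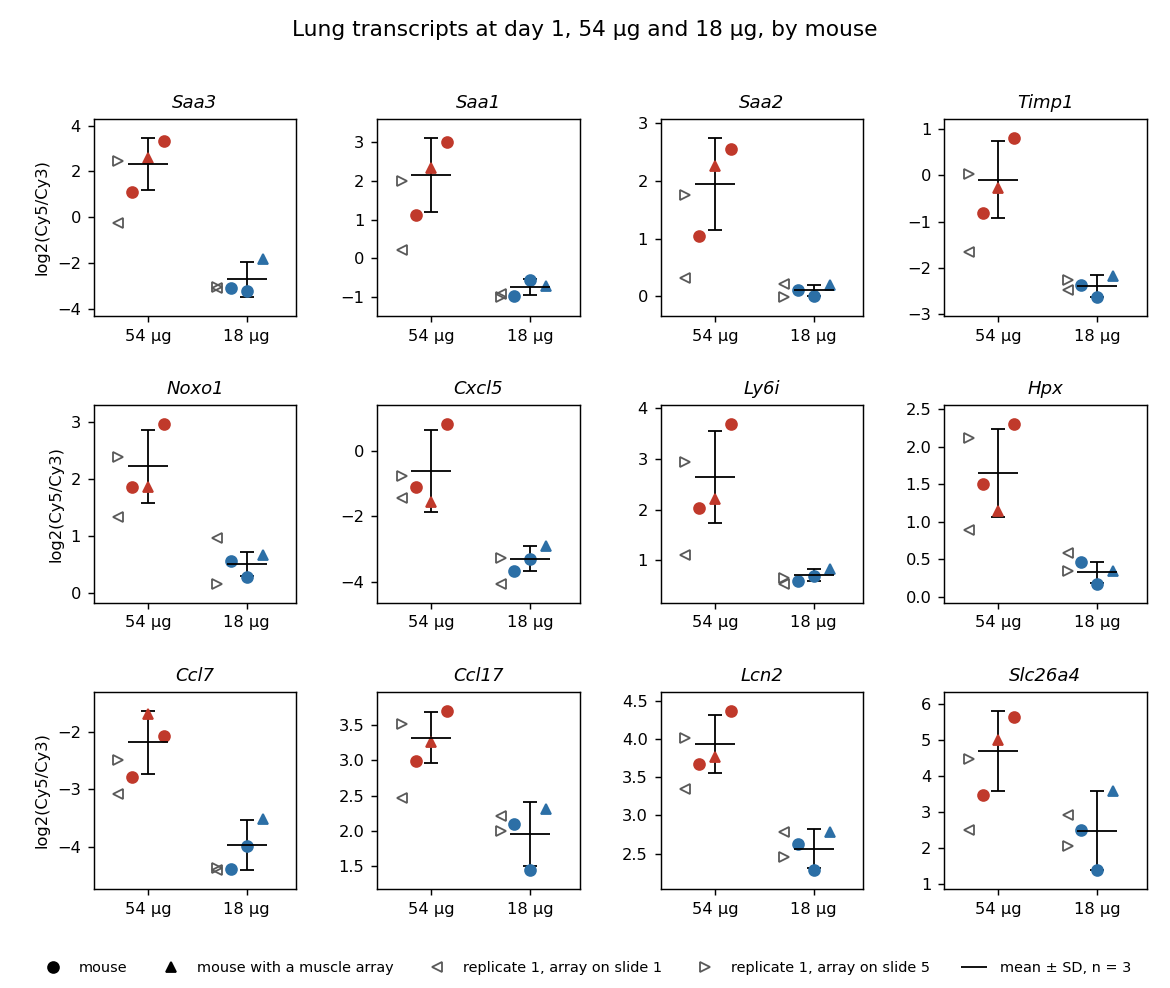
Log2(Cy5/Cy3) of 12 genes in the 54 µg mice (red, left) and the 18 µg mice (blue, right) at day 1, 1 filled symbol per mouse, with the mean ± SD of 3 mice as bars. Triangles are the mice with a muscle array, and open symbols are the 2 arrays of replicate 1. In the 54 µg mouse the slide 1 array lies below the slide 5 array in all 12 genes, and the slide 1 value of Saa3 (-0.26) still lies above every 18 µg mouse.

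The acute phase list held 18 genes, of which 15 were tested. Of these 3 rose, the serum amyloid A genes above, and 0 fell (0.0172% of all genes passed, in either direction). All 15 had a positive difference, against 51.1% of all genes tested. The median was 0.95, against 0.0037 over all genes, and 8 of 15 had all 54 µg mice above all 18 µg mice (all genes 4.85%). Besides serum amyloid A, Hpx, the heme-binding hemopexin, stood at 1.50, 1.15 and 2.30 at 54 µg, against 0.46, 0.18 and 0.35 at 18 µg (difference 1.32, adjusted p = 0.357). Lcn2, the siderophore-binding lipocalin 2, stood at 3.68, 3.76 and 4.37 at 54 µg, against 2.62, 2.28 and 2.79 at 18 µg (1.37, adjusted p = 0.570). The groups did not overlap in either gene, and neither passed. Ceruloplasmin, the copper carrier Cp, differed by 0.95 (0.90, 0.43 and 1.22 at 54 µg, against -0.11, -0.26 and 0.06 at 18 µg). Of the orosomucoids, Orm1 (1.63) and Orm2 overlapped between the groups. Orm2 stood at 2.15, 3.42 and 3.91 at 54 µg, against 0.18, 0.41 and 2.30 at 18 µg (2.20, unadjusted p = 0.0163), with its highest 18 µg value in the mouse with muscle. Haptoglobin (Hp) was at 6.11, 6.09 and 6.64 at 54 µg, against 5.91, 5.90 and 5.99 at 18 µg (0.35). Orm3 differed by 0.13 and Lbp by 0.11. The fibrinogen chain Fgb was well above background on 0 of 4 arrays at either dose. Within slides, the median of the list was 0.09 on slide 1, 1.55 on slide 5, 0.92 on slide 3 and 1.27 on slide 4. Without the muscle arrays 14 of 15 were positive (median 1.24), and over 27 alternative settings the median of the acute phase list ran from 0.76 to 1.45.

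None of the chemokines passed. For neutrophil chemoattractants, 5 of 6 tested were positive (median 0.55), with Ppbp at -0.06. Cxcl5, a ligand of CXCR2 made by lung epithelium, stood at -1.11, -1.55 and 0.80 at 54 µg, against -3.67, -3.31 and -2.90 at 18 µg (2.67, SE 0.50, adjusted p = 0.0759). It was well above background on 4 of 4 arrays at 54 µg and 1 of 4 at 18 µg, and it passed without the slide 1 array of 54 µg replicate 1 (adjusted p = 0.0243). Cxcl1, another CXCR2 ligand, differed by 0.63, and Cxcl3 was at least 1.34-fold higher at 54 µg. Both had all 54 µg mice above all 18 µg mice, and Cxcl3 was well above background on 2 of 4 arrays at 54 µg and 0 of 4 at 18 µg. Cxcl15, the chemokine of the resting lung epithelium, differed by 0.01. Of 13 CC chemokines all 13 were positive (median 0.80), and 6 did not overlap between groups (all genes 4.85%). Ccl7, a monocyte attractant, stood at -2.78, -1.69 and -2.08 at 54 µg, against -4.40, -3.99 and -3.52 at 18 µg (1.79, adjusted p = 0.548). Ccl2, the main ligand of CCR2, stood at -3.55, -2.82 and -3.02 at 54 µg, against -4.77, -4.71 and -4.39 at 18 µg (1.50). Ccl17, which draws T cells through CCR4, stood at 2.99, 3.27 and 3.70 at 54 µg, against 2.10, 1.45 and 2.32 at 18 µg (1.37, adjusted p = 0.553). In Ccl7 and Ccl2 the highest 54 µg mouse was replicate 2 and the highest 18 µg mouse was replicate 3, the 2 mice with muscle. Ccl9 differed by 1.01, Ccl24 by 1.09 and Ccl5 by 0.10. The median of the CC chemokines was 0.12, 0.54, 1.51 and 0.98 within slides 1, 5, 3 and 4, and that of the neutrophil chemoattractants was -0.06, 0.64, 0.68 and 0.31. Of the interferon-induced chemokines, Cxcl10 stood at -0.01, 0.27 and 0.34 at 54 µg, against -0.99, -1.05 and -1.07 at 18 µg (1.24, unadjusted p = 0.00419), and Cxcl9 differed by 0.52. For the 14 chemokine receptors tested the median was 0.16, with 0 not overlapping.

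Of 10 cytokines tested, 9 were positive with a median of 0.32 and none passed. Il6, the main inducer of the acute phase, stood at -1.25, -1.11 and 0.20 at 54 µg, against -1.48, -1.42 and -1.59 at 18 µg (0.78, unadjusted p = 0.00727). It was well above background on 3 of 4 and 1 of 4 arrays, and most of the difference came from 54 µg replicate 3. Tnf stood at -0.59, -0.22 and -0.48 at 54 µg, against -0.99, -0.84 and -1.05 at 18 µg (0.53). Il1b (0.56) overlapped between the groups, Il33 differed by 0.38, and the epithelial cytokine Tslp lay lower at 54 µg in all mice (-0.29). Genes that NF-κB and STAT3 induce as their own feedback had a median of 0.37 over 13 tested, with 11 positive (all genes 51.1%) and 7 above 18 µg in all mice (all genes 4.85%). Bcl3, an IκB-like nuclear cofactor, stood at -0.09, -0.11 and 0.17 at 54 µg, against -0.64, -0.57 and -0.52 at 18 µg (0.57, unadjusted p = 0.00157). The NF-κB subunits Relb and Nfkb2 differed by 0.54 and 0.46, and the inhibitor Tnfaip3 by 0.37. Icam1, a target in the same pathway, differed by 0.00. The median of this list stayed between 0.25 and 0.50 over 27 alternative settings.

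**Figure D3:**
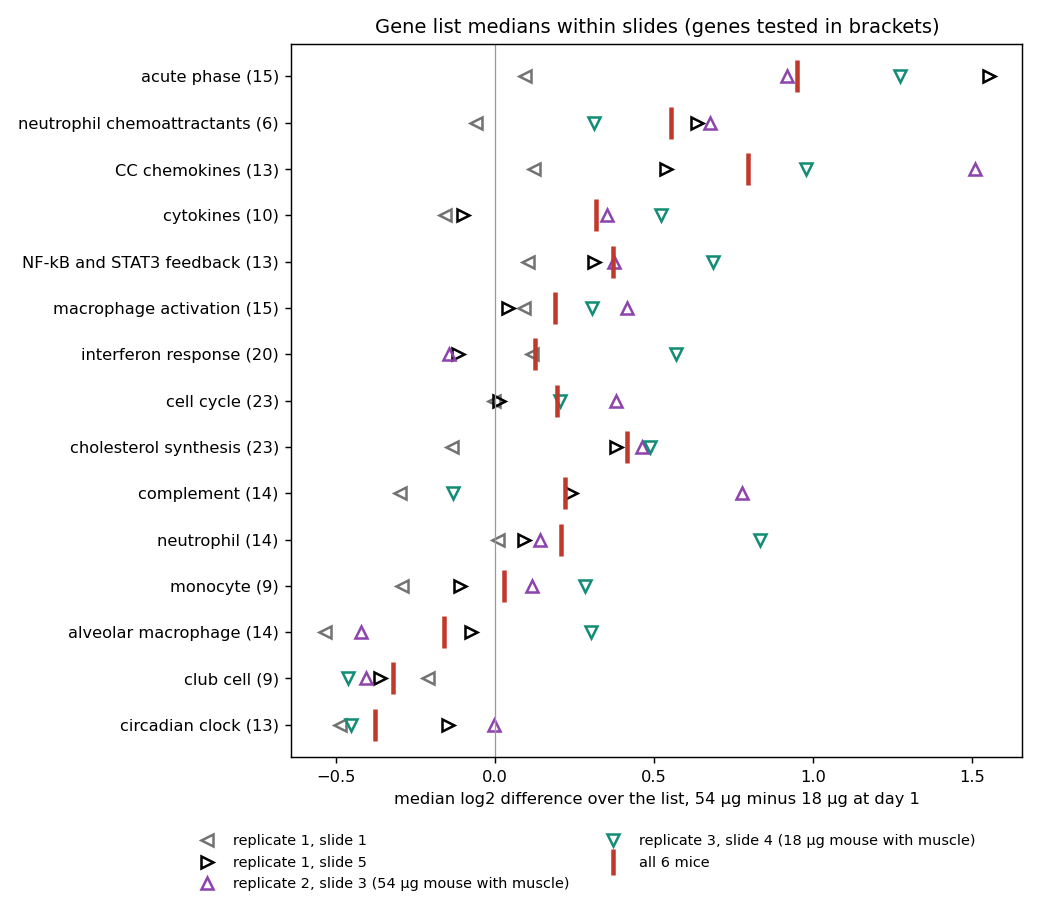
Median log2 difference between 54 µg and 18 µg at day 1 over each of 15 gene lists (rows, genes tested in brackets), for all 6 mice (red bars) and within each slide that holds 1 array of each dose (open symbols). For the acute phase list the slide 1 symbol (0.09) lies apart from those of slides 5, 3 and 4 (1.55, 0.92 and 1.27), while the club cell list lies below 0 on all 4 slides.

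Among 10 rises ranked by p among genes with a log2 difference of at least 1, Noxo1 came next after the genes that passed. Noxo1, the organizer of the superoxide-producing NADPH oxidase 1, stood at 1.87, 1.86 and 2.96 at 54 µg, against 0.57, 0.28 and 0.68 at 18 µg (1.72, SE 0.31, adjusted p = 0.0564). It passed under 10 of 27 alternative settings, among them with the covariates (1.91, adjusted p = 0.0175) and without the slide 1 array of 54 µg replicate 1 (1.89, adjusted p = 0.00921). Ly6i and Ly6f, which encode lipid-anchored surface proteins, differed alike. Ly6i stood at 2.03, 2.20 and 3.69 at 54 µg, against 0.60, 0.69 and 0.83 at 18 µg (1.93, adjusted p = 0.383), and Ly6f differed by 1.81 (adjusted p = 0.626). These 2 genes are close relatives, and signal shared between their probes was not tested. Among the other tested members of that family, Ly6d differed by 0.69 with groups that overlapped, Ly6a and Ly6c1 by 0.21, Ly6k by 0.17 and Ly6e by 0.05. Spon2, a secreted matrix protein that binds microbial surfaces, stood at -0.65, -0.92 and 0.03 at 54 µg, against -1.80, -1.46 and -2.18 at 18 µg (1.30, adjusted p = 0.383). The 18 µg mice were also low against control mice, which averaged -0.44 ± 0.54 (SD, n = 4). Slc26a4, the anion exchanger pendrin of the airway epithelium, stood at 3.48, 4.99 and 5.64 at 54 µg, against 2.49, 1.39 and 3.58 at 18 µg (2.22, unadjusted p = 0.002). Its groups overlapped, and its sign turned on slide 1 (-0.43) against 2.41, 3.60 and 2.06 on slides 5, 3 and 4.

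Macrophage activation genes had a median of 0.19 (12 of 15 positive, against 51.1% of all genes). Acod1, whose enzyme makes itaconate, stood at -2.71, -2.84 and -1.83 at 54 µg, against -3.50, -3.52 and -3.61 at 18 µg (1.08, unadjusted p = 0.00376). Clec4d, a C-type lectin receptor of myeloid cells, stood at -1.85, -1.29 and -1.38 at 54 µg, against -2.43, -2.57 and -2.55 at 18 µg (1.01). Nos2 differed by 0.04 and Ptgs2 by 0.07. Next to Timp1, the metalloproteinases Mmp3 (1.04), Mmp19 (0.60) and Mmp9 (0.50) lay above 18 µg in all 54 µg mice, while Mmp2 (-0.30) lay below and Timp2 stood at -0.45. Of 15 genes of metalloproteinase control tested, 7 lay above in all mice and 1 below (all genes 4.85% and 3.42%). Only Timp1 among them passed. Markers of lipid-laden phagocytes had a median of 0.05, with Lgals3 at 0.54, Gpnmb at 0.62 and Spp1 at 0.09. Several response genes were highest in 54 µg replicate 2, the mouse with muscle and squamous transcripts. Hmox1, which breaks down heme, stood at -3.34, -0.62 and -3.17 at 54 µg, against -3.66, -3.38 and -3.95 at 18 µg, and Fabp5 at 0.99, 2.60 and 1.22, against 0.50, 0.33 and 0.26. A second Hmox1 probe, well above background on 8 of 8 arrays, differed by 0.36, against 1.29 for the probe shown. Mt2, a metallothionein, stood at -2.60, -0.99 and -2.05 at 54 µg, against -3.31, -3.59 and -2.88 at 18 µg. Arg1 stood at 0.59, 2.79 and 1.87, against 0.87, 0.79 and 0.62. How far that tissue sets these values was not tested. The oxidative stress list as a whole had a median of 0.09, with 8 of 14 positive, and lay at -0.05 to 0.30 over the alternatives.

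Cholesterol synthesis genes had small differences of 1 sign. All 23 tested were positive (51.1% of all genes), 16 did not overlap (4.85% of all genes), and 0 passed. The median was 0.41. Fdps, which makes farnesyl diphosphate, stood at -0.26, 0.23 and 0.15 at 54 µg, against -0.38, -0.73 and -0.70 at 18 µg (0.64). Sqle differed by 0.51, Srebf2, the transcription factor of the pathway, by 0.48, and Hmgcs1 by 0.36. The median was -0.14 on slide 1, against 0.38, 0.46 and 0.49 on slides 5, 3 and 4. The cholesterol synthesis list had 23 of 23 positive without the muscle arrays (median 0.34) and with the covariates (0.29). Fatty acid and adipocyte genes gave 1.95 on slide 3 and -1.34 on slide 4, the slides of the 2 mice with muscle, with a median of 0.12 over all mice.

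Interferon response genes had a median of 0.13, with 17 of 20 positive (all genes 51.1%) and 2 above 18 µg in all mice (all genes 4.85%). Rsad2, an antiviral enzyme, stood at 0.28, 0.17 and 0.81 at 54 µg, against -0.27, -0.25 and -0.10 at 18 µg (0.63). The sign of the interferon response median turned without 18 µg replicate 3. The interferon gamma GTPases had a median of 0.0053, with 0 above or below in all mice (all genes 4.85% and 3.42%). Cell cycle genes had a median of 0.19 (21 of 23 positive). The parts of the replicative helicase led them, with Mcm5 at -2.14, -1.70 and -1.78 at 54 µg, against -2.16, -2.21 and -2.55 at 18 µg (0.43), while the mitotic genes Mki67 (0.31) and Plk1 (-0.04) overlapped. The sign of the cell cycle median turned without the muscle arrays, with scaled arrays and with array weights. Complement genes had a median of 0.22 with C3 at 0.90 and Cfb at 0.50, and the median turned negative without 54 µg replicate 2 or the muscle arrays. Medians of 0.05 for lysosome, 0.13 for matrix and 0.14 for glucocorticoid responsive genes completed the pathways. Centring arrays on their median in place of loess moved the median of all genes to 0.122, so list medians under about that size have no settled distance from it.

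Lower transcripts at 54 µg were fewer, and none passed. Of 15199 tested genes with a symbol, a rule kept 42 in the higher direction and 4 in the lower. The rule asked for a log2 difference of at least 1, no overlap and, in the higher group, signal well above background on every array. Dbp, a clock-controlled transcription factor, stood at 1.94, 2.02 and 1.73 at 54 µg, against 3.31, 2.76 and 2.92 at 18 µg (-1.10, SE 0.30, unadjusted p = 0.0012), and a second Dbp probe gave -1.16. Fabp1, a fatty acid binding protein found in alveolar macrophages, stood at 2.98, 2.37 and 3.05 at 54 µg, against 3.92, 4.24 and 3.59 at 18 µg (-1.12, unadjusted p = 0.0199). The remaining 2 rested on 18 µg replicate 3, the mouse with muscle. Myh7, the slow and cardiac myosin heavy chain, stood at 3.80, 3.22 and 4.02 at 54 µg, against 4.19, 4.04 and 6.71 at 18 µg, and Dusp26, a phosphatase, at 1.38, 1.55 and 1.50, against 1.95, 2.03 and 4.35.

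Clock genes had differences of both signs. Arntl (BMAL1), Npas2 and Clock, which form the activating complex, lay higher at 54 µg in all mice, though Npas2 was well above background on 2 of 4 arrays at 54 µg and 0 of 4 at 18 µg. By contrast, 7 of the genes that this complex turns on, or that follow it, lay lower in all mice. Arntl stood at -0.44, -0.51 and -0.20 at 54 µg, against -1.46, -1.26 and -1.02 at 18 µg (0.86, SE 0.22, adjusted p = 0.745). Tef stood at 1.59, 1.31 and 1.32 at 54 µg, against 2.26, 2.11 and 2.02 at 18 µg (-0.72). Nr1d1, the repressor REV-ERB alpha, stood at 2.06, 2.00 and 1.97 at 54 µg, against 2.55, 2.54 and 2.44 at 18 µg (-0.50). Hlf (-0.60), Cry2 (-0.33), Per3 (-0.43) and Per2 (-0.38) completed the 7 with Dbp, while Nr1d2 (-0.38) and Per1 (0.13) overlapped. In all, 3 of 13 clock genes lay above and 7 below without overlap, against 4.85% and 3.42% of all genes. The spread between mice was small, with SDs of 0.04 to 0.22 for Arntl, Nr1d1 and Tef in both groups. None of the 13 passed. The median of the list stayed between -0.46 and -0.22 over 27 alternatives. Between the 2 arrays of 54 µg replicate 1, Dbp read 1.42 and 2.45 and Arntl 0.03 and -0.91 on slides 1 and 5. Against control mice of day 1, the list median was 0.57 for 18 µg and 0.07 for 54 µg. By these medians the 18 µg mice, more than the 54 µg mice, stood apart from control. Dbp averaged 1.57, 2.99, 1.90 and 1.57 at 0, 18, 54 and 162 µg, and Arntl -0.10, -1.25, -0.38 and -0.51. All 4 control mice had a muscle array, and the control array without muscle read 3.01 for Dbp.

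Markers of inflammatory cells were measured as lists. Neutrophil markers had a median difference of 0.21, with 11 of 14 positive (all genes 51.1%) and 0 passing. Their mean log2 Cy5 was 9.08 to 9.15 in the 54 µg mice and 8.48 to 8.80 in the 18 µg mice, which did not overlap. The members with the largest differences were Ltf (1.64) and Il1r2 (1.60), and the most used neutrophil transcripts differed little, with S100a8 at 0.28, S100a9 at 0.10 and Csf3r at -0.24. Il1r2 was highest in 54 µg replicate 2 (3.19, against 0.90 and 1.82 in the other 54 µg mice). Monocyte markers had a median of 0.03, with Ccr2 at -0.11. T cell markers had a median of 0.12, B cell markers 0.30, NK cell markers -0.07 and dendritic cell markers -0.04, and the sign of each turned under 4 to 8 of 27 alternatives. Of 10 mast cell and eosinophil markers (median -0.04), 3 were well above background on none of the 8 arrays. Blood markers had a median of 0.16, with Hbb-b1 at 0.33 and Hba-a1 at -0.08.

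Club cell markers, from the secretory cells of the small airways, had a median of -0.32: 8 of 9 were negative, 5 lay below in all mice (all genes 3.42%) and 0 passed. Ces1d, a carboxylesterase, stood at 6.12, 6.26 and 6.44 at 54 µg, against 6.68, 6.57 and 6.90 at 18 µg (-0.44, unadjusted p = 0.0015). Cbr2 differed by -0.45, Aldh1a1 by -0.48, Fmo2 by -0.32 and Cyp2f2 by -0.28. The 1 positive member differed by 0.88, with groups that overlapped, the largest difference in size of the list. Scgb1a1, the defining secretoglobin, overlapped (6.60, 6.93 and 7.20 at 54 µg, against 6.90, 7.38 and 7.68 at 18 µg). The median was -0.21 to -0.46 within the 4 slides, and with the arrays scaled to one spread it turned to 0.08. Alveolar macrophage markers had a median of -0.16, with Fabp1, Ear1 (-0.82) and Ear2 (-0.62) lowest and Marco at 0.19. Their median turned positive with median centring, scaled arrays and the covariates. Alveolar type II (-0.07), alveolar type I (-0.18), ciliated (-0.08) and endothelial markers (-0.10) each turned sign under 2 to 7 of 27 alternatives, scaled arrays among them, and 0 of their genes passed. Sftpc, the surfactant protein of type II cells, stood at 7.90, 7.62 and 8.38 at 54 µg, against 8.19, 8.23 and 8.34 at 18 µg. The goblet and type 2 list had a median of 0.28 (-0.57, 1.72, 1.39 and 0.17 on slides 1, 5, 3 and 4, and 0.16 to 1.02 over 27 alternatives), led by Slc26a4, with Muc5b at 4.84, 5.03 and 4.68 at 54 µg, against 3.77, 3.16 and 4.11 at 18 µg (1.17). Of the neighbouring tissues, squamous epithelium had a median of 1.61 with all mice and of 4.94 on slide 3, skeletal muscle -0.33 with all mice, and cardiac muscle 0.92.

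The same pair of doses at day 28 gave values for a later time. Of 23256 genes 0 passed there (0%, with 970 at an unadjusted p under 0.05), between 4 mice at each dose. Of these, 3 of 4 at 54 µg and 1 of 4 at 18 µg had a muscle array. Saa3 averaged -2.52 ± 0.75 at 54 µg and -2.70 ± 1.07 at 18 µg at day 28 (SD, n = 4 each), a difference of 0.18. Saa1 differed by 0.05 and Timp1 by -0.04. The test of the difference between days called 0 genes (0%, with 352 at an unadjusted p under 0.05). Saa3 came nearest, with a day 1 difference larger by 4.88 (SE 0.87, unadjusted p = 8.87e-06, adjusted p = 0.148), and Saa2 followed with 1.90 (adjusted p = 0.148), a value built on levels not above background at 18 µg. For Saa1 the value was 2.84 (adjusted p = 0.303) and for Timp1 2.33 (adjusted p = 0.667). Without the slide 1 array of 54 µg replicate 1, 3 genes passed this test, all among the 4 that rose at day 1. Leaving out the muscle arrays left only replicate 4 at 54 µg at day 28, a group with no spread between mice. Genes called in that setting are therefore not read as a difference between days. Dbp had opposite signs on the 2 days: it was 1.00 higher at 54 µg on day 28 (1.16 ± 0.22 at 54 µg and 0.16 ± 0.25 at 18 µg), and the day 1 difference was lower by 2.10 (unadjusted p = 1.9e-05, adjusted p = 0.148). Tef was 0.46 higher and Arntl 0.30 lower at 54 µg at day 28, also opposite to day 1.

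**Figure D4:**
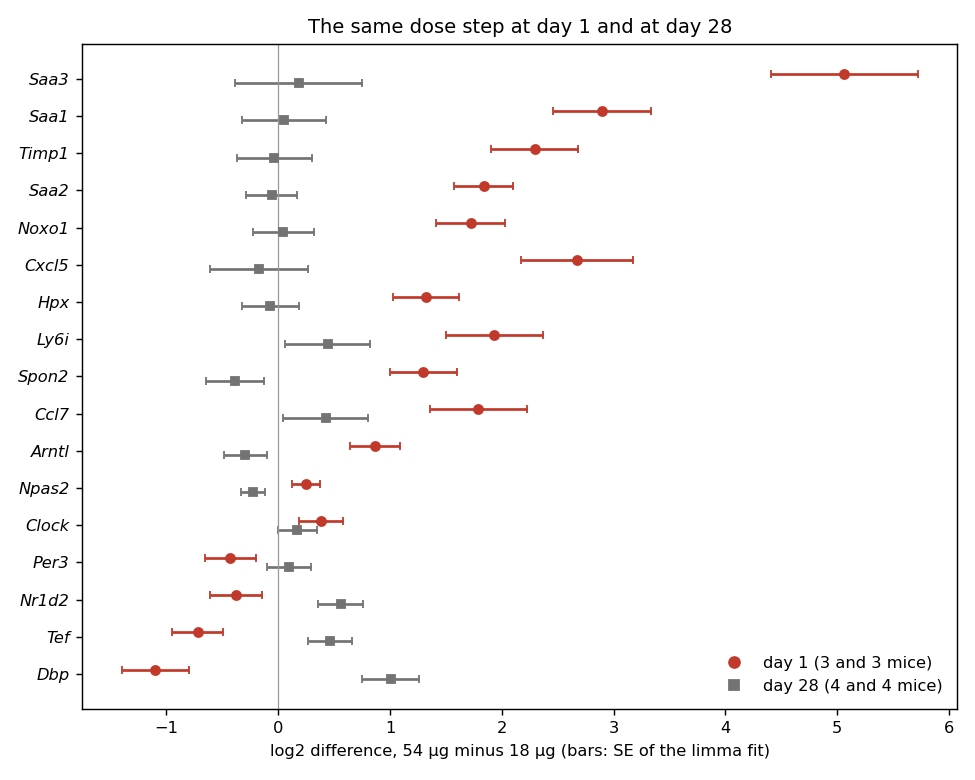
Log2 difference between 54 µg and 18 µg (x axis) for 17 genes at day 1 (red circles, 3 and 3 mice) and at day 28 (grey squares, 4 and 4 mice), with bars of 1 SE of the limma fit. Saa3 lies at 5.06 at day 1 and 0.18 at day 28, and Dbp lies at -1.10 and 1.00.

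Set among the other doses of day 1, the serum amyloid A levels of the 18 µg mice overlapped those of the control mice, and the 54 µg mice lay above both. Saa3 averaged -2.27 ± 0.93 at 0 µg (n = 4), -2.72 ± 0.77 at 18 µg (n = 3), 2.34 ± 1.14 at 54 µg (n = 3) and 4.78 ± 0.77 at 162 µg (SD, n = 4). Saa2 averaged -0.03, 0.11, 1.94 and 4.17 at 0, 18, 54 and 162 µg, and it was not above background on any array at 0 or 18 µg. Timp1 averaged -2.34, -2.39, -0.09 and 1.51 at these doses. Noxo1 and Cxcl5 had means at 162 µg close to those at 54 µg, with 0.41, 0.51, 2.23 and 2.25 for Noxo1 and -3.08, -3.29, -0.62 and -0.67 for Cxcl5. Lcn2, with 1.78, 2.57, 3.94 and 4.20, was the one of these genes that lay above all control mice at 18 µg. The comparison of 18 µg with control called 0 genes (0%, with 950 at an unadjusted p under 0.05), and 54 µg against control called 12 (0.0516%). The comparison of 162 µg with 54 µg called 1 gene (0.0043%), Saa2 (2.22, adjusted p = 8.74e-05). The comparisons share the mice of the doses between them, and all 4 control mice had a muscle array. The other array of control replicate 1, on slide 1, had none, and it read -3.16 for Saa3, -0.47 for Saa1, -2.27 for Timp1 and 2.27 for Lcn2. For the rest of the control arrays, control level and muscle tissue cannot be told apart. Whether the step from 54 to 162 µg differed from the step from 18 to 54 µg was tested directly, and 0 genes passed (0%, with 267 at an unadjusted p under 0.05). For Saa3 the higher step was smaller by 2.62 (SE 1.11, unadjusted p = 0.0271), for Cxcl5 by 2.72 (unadjusted p = 0.00397) and for Noxo1 by 1.70 (unadjusted p = 0.0039). These genes were described because their step from 18 to 54 µg was large, and the 54 µg mean enters both steps. A 54 µg mean that is high by chance makes the lower step larger and the higher step smaller. Their unadjusted p-values therefore cannot decide whether the higher step was smaller. For Saa2 the lower step is a lower bound, so its steps were not compared.

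**Figure D5:**
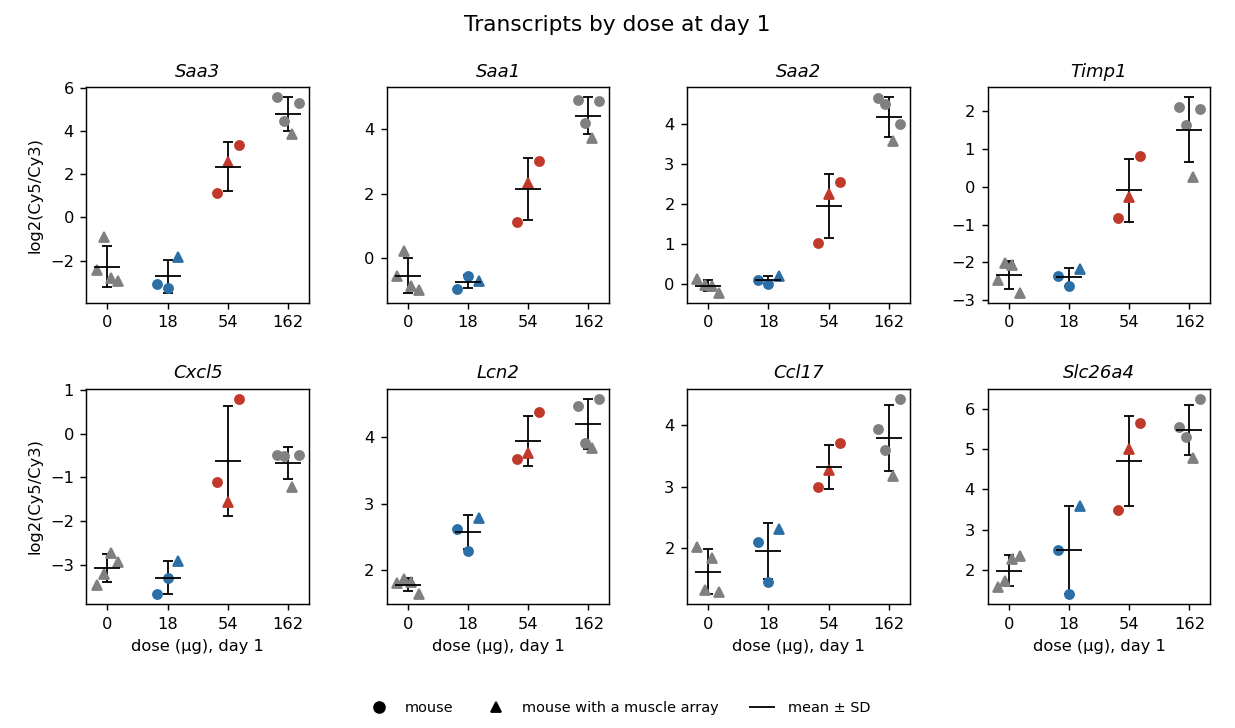
Log2(Cy5/Cy3) of 8 genes at 0, 18, 54 and 162 µg at day 1, 1 symbol per mouse (54 µg red, 18 µg blue, the others grey, triangles for mice with a muscle array) and the mean ± SD as bars. For Saa3, Saa1, Saa2 and Timp1 the 18 µg mice overlap the control mice, and the 54 µg mice lie above both.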

How the data were processed

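The deposited scanner files, 1 for each of 36 arrays, were made with Feature Extraction 11.0.1.1, per the file headers. The intensity values are median Cy5 and Cy3 pixel signals of each spot and of its local background, on a linear scale and not normalized, per the file headers. Their LogRatio is a log10 ratio of the dye-normalized signals, per the file headers. The deposited value table holds log2 ratios of Cy5 over Cy3, with the dyes taken from the labels. Its scale and direction were found by setting each column against that array's own ratios (r = 0.986 to 0.997 over 36 arrays). Its medians were -0.039 to -0.017, and how the authors centred it is not given in the sources used here.

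Groups came from the dose and time labels, and arrays of the same mouse from the sample numbers in the labels. One mouse given 162 µg has day 1 in its titles and day 28 in its time label, and it was kept at day 28. The labels speak of 5 per group, and 3 or 4 mice per group were analysed here. The arrays lay on 5 slides and in 3 scan sessions, and on each of slides 1, 3, 4 and 5 the comparison had 1 array of each dose. The labels of the mice give no culture or litter, and p-values measure the spread between these mice.

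Signals were background-corrected with normexp (offset 50), normalized by loess within each array and tested with limma 3.58.1 in R 4.3.3. Control spots had weight 0 in the loess, outlier spots were left out, and no tested value was saturated. Spots of a probe and arrays of a mouse were averaged, and each gene was read from its brightest probe. Of 55681 probes, 28026 carried a symbol, updated through RefSeq on GRCm38.p6. Of 36799 gene names, 23256 were tested (15199 with a symbol), a gene being kept where some group had 3 or more mice whose arrays all marked its probe well above background in the Cy5 channel. The fit held 29 mice in 8 groups (21 residual degrees of freedom), with a two-sided moderated test, Benjamini-Hochberg adjustment and a threshold of 0.05. Missing values of single mice, 3 in all over the 6 mice, were left out of the fit. A fold against a group not above background was given as a lower bound. It was the smaller of the fit's fold and the fold against the lowest signal well above background. For Saa2 it was the fit's fold. An array counted as a muscle array where its mean log2 Cy5 over the skeletal muscle list was above 9. This held for 12 arrays (10.73 to 15.06), against 6.68 to 7.47 on the other 24. The number of arrays limits the precision.

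Genes named in the text are the called genes, up to 10 rises and 10 falls (10 and 4 were found) with the smallest unadjusted p among genes with a log2 difference of at least 1, no overlap between groups and the higher group well above background, up to 3 members of each list by p, and a short set of response genes; a few others were named after their values were seen, to show members that differed little or in the other direction. The 40 gene lists and these genes were chosen with earlier results of these data known. Other probes of the named genes passed the filter for 22 genes, and 1 of them, for Mylpf, had the opposite sign. In data simulated for this comparison (23256 genes, 50 changed at each fold), 32%, 78%, 96% and 96% of changes of 1.5-, 2-, 4- and 8-fold were recovered, with 9 false among 160 calls. The noise was independent between genes and the calls were far more than in the real comparison, so these shares do not give its sensitivity. Alternatives changed the background correction, the normalization, the filter, the probe rule, the arrays and mice in the fit, slide and tissue terms, and the variance model. Values of some list members are not reported here.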

Additional observations from a re-analysis of the deposited data

Results flagged for a closer look

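Among 70 groups of 4 mice tested over the genes described above, 6 held a mouse far from the other 3 by Dixon's test, where chance gives about 1 in 20 groups. At day 1 and 162 µg, replicate 3 was the lowest mouse for Noxo1 (1.56, with the others at 2.43 to 2.58), Cxcl5 (-1.22, with the others at -0.51 to -0.47) and Ly6i (2.69, with the others at 3.84 to 3.95). That mouse had a muscle array, whose part in these values was not tested, and it enters no 54 µg or 18 µg mean. Dbp was lowest in control replicate 4 at day 1 (0.69, with the others at 1.84 to 1.92), a mouse that also had a muscle array. The 1.92 of control replicate 1 is the mean of 2 unlike arrays. They read 3.01 on slide 1 without muscle and 0.83 on slide 5 with muscle. Saa2 was lowest in 18 µg replicate 4 at day 28 (-0.139) and highest in 54 µg replicate 1 at day 28 (0.164), both at levels where its probe is close to background.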

How the results depend on the processing

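The comparison of 54 with 18 µg at day 1 called 4 genes. It called 11 (all higher) with median centring, 10 (8 higher, 2 lower) with array weights, 9 (8 higher, 1 lower) without the slide 1 arrays and 12 (11 higher, 1 lower) without the slide 1 array of the first 54 µg mouse, each with the 4 genes among them. It called 1 without the muscle arrays, and 0 with only the 6 mice, with the 4 mice left without muscle arrays or without the slide 5 array of the first 54 µg mouse (698, 1051 and 559 genes at an unadjusted p under 0.05 in limma). The mice of a slide, used as a replicate block over the 6 mice, gave 0 calls (528 at an unadjusted p under 0.05). Deviations of mice from their group means, correlated across genes, gave 0.28, -0.31 and -0.41 for mice of the same slide. The highest value, 0.44, was between 54 µg replicate 2 and 18 µg replicate 3, the mice with muscle, on different slides. These correlations follow tissue content as well and cannot decide whether a slide effect was present. The same 4 genes were among 4 to 6 calls without background correction, with the value table, LogRatio, no filter, a filter over both groups, the mean of probes, the mouse as a random block, the covariates, the trend and robust prior, and without the mouse of conflicting labels. With scaled arrays or the slide as a block there were 4 calls, 3 of them shared. Leaving out 1 mouse gave 1 to 4 calls, with 1 without 54 µg replicate 2 or 3 and 2 without 18 µg replicate 1. The test between days called 0 genes, but 14 without the muscle arrays, 3 without the slide 1 arrays, 3 without the slide 1 array of the first 54 µg mouse, 1 with the covariates, and 0 to 3 without 1 mouse (3 without 54 µg replicate 1). Without the muscle arrays, the 54 µg group at day 28 held only replicate 4 and so had no spread between mice. The count of the test between days in that setting is therefore not read as a stronger difference between days. The test between dose steps was rerun without the muscle arrays and with the covariates. It was also rerun without the slide 1 arrays, and without that of the first 54 µg mouse alone. It called 0 genes in each, and the other alternatives were not run for it. The cause of these differences was not tested. Of 130 named genes that did not pass, 7 passed under some alternative (Noxo1, Cxcl5, Ccl7, Ccl2, Hpx, Ly6i and Ccl17), and 30 changed sign in 68 of 3505 values. Saa2 at 18 µg lay below the signal that the arrays resolve, so its difference is a lower bound.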
